A study of Mus musculus with 26 samples.

Results

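The endothelium of MCA313 tumours after 48 h of interferon gamma (IFNγ) released by the tumour cells was compared with the endothelium of MCA313 tumours that had not been induced. The comparison rests on the 2 arrays titled as MCA313 tumour endothelium at 48 h and the 3 arrays titled as the same cells at 0 h, which are 5 of the 26 arrays of the series. The 2 arrays at 24 h are given where a time course is described. In all 3 groups the tumours carried an inducible IFNγ gene (MCA313-IFNγ-IND) and grew in female mice aged 4 to 6 months of the genotype PIG-Pdgfb-Cre-IFNγ-del. These mice carry the IFNγ receptor on endothelial cells alone, and the cells that carry it are set by where Pdgfb-Cre is active. Tumours were resected at a diameter of about 1 cm and digested, endothelial cells were sorted by CD31 and CD146, and picogram amounts of RNA were amplified and labelled for Affymetrix arrays. The labels number the replicates without saying whether each came from its own animal, so the spread between replicates may be technical. The p-values and standard errors rest on a spread pooled over the 9 groups of all 26 arrays, not on these 5 arrays alone. They can be too small for genes whose MCA313 replicates lay farther apart than that pooled spread.

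IFNγ binds a receptor of 2 chains, encoded by Ifngr1 and Ifngr2, and its signal reaches genes through a DNA element called GAS. A direct target is Irf1, whose product in turn binds interferon-stimulated response elements (ISRE) in many secondary targets. In most cells the products include guanylate-binding proteins, immunity-related GTPases, proteins of the Ifi200 family, chemokines and the machinery of antigen presentation. In tumour vessels IFNγ is known for slowing endothelial growth and for the regression of the vessel.

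The table analysed held 65535 probe sets, and 4386 genes were tested, of which 1527 lie on chromosome 11, 1136 on chromosome 1, 886 on chromosome 10, 650 on chromosome 12 and 162 on chromosome 13. Not analysed here were Ifngr2, the guanylate-binding proteins and the genes of class II presentation. Values are log2 expression, averaged over all probe sets of a gene, so that a difference of 1 is a change of 2-fold; values after ± are standard errors of the fitted difference. The medians of the 7 MCA313 arrays lay between 5.78 and 5.88. The number of arrays limits the precision, and background was not measured, so the size of a change is uncertain for genes whose lower group lay under those medians. The endothelial marker Pecam1, which encodes CD31, was among the brightest genes in every array, at 11.36 and 11.53 at 48 h and 11.70, 11.62 and 11.69 at 0 h. Mcam, which encodes CD146, was not analysed here.

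The receptor chain Ifngr1 measured 11.61 and 11.39 at 48 h and 10.01, 11.44 and 11.56 at 0 h. Its groups overlapped, and the difference was 0.50 ± 0.39 (limma adjusted p = 0.619). Replicate 1 at 0 h stood apart: it was the lowest of the 7 MCA313 arrays in 8 of the 9 Ifngr1 probe sets, and without it the difference was 0.0028. Ifng itself stayed near the lower end of the scale, at 3.70 and 3.97 at 48 h against 3.97, 3.97 and 3.79 at 0 h (difference -0.08 ± 0.28, adjusted p = 0.954). In this design the cytokine comes from the tumour cells, which the sort is meant to leave out.

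At 48 h 63 genes rose and 73 fell against 0 h, which is 136 genes or 3.10% of those tested (1.44% higher and 1.66% lower; limma, Benjamini-Hochberg adjusted p under 0.05 over all 4386 genes). The median difference of all genes was -0.03. At an unadjusted p under 0.05 there were 668 genes, against 219.3 that chance gives over this number of genes. Both 48 h arrays lay above all 0 h arrays in 14.0% of all genes and below them in 19.8%. The difference was positive in 1992 of the 4386 genes and negative in 2394. The counts per gene list given below are to be read beside these shares. In the plot of all genes the largest rises reached farther than the largest falls, which were those of Zfp322a, Slc35f1 and Sele.

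**Figure D1:**
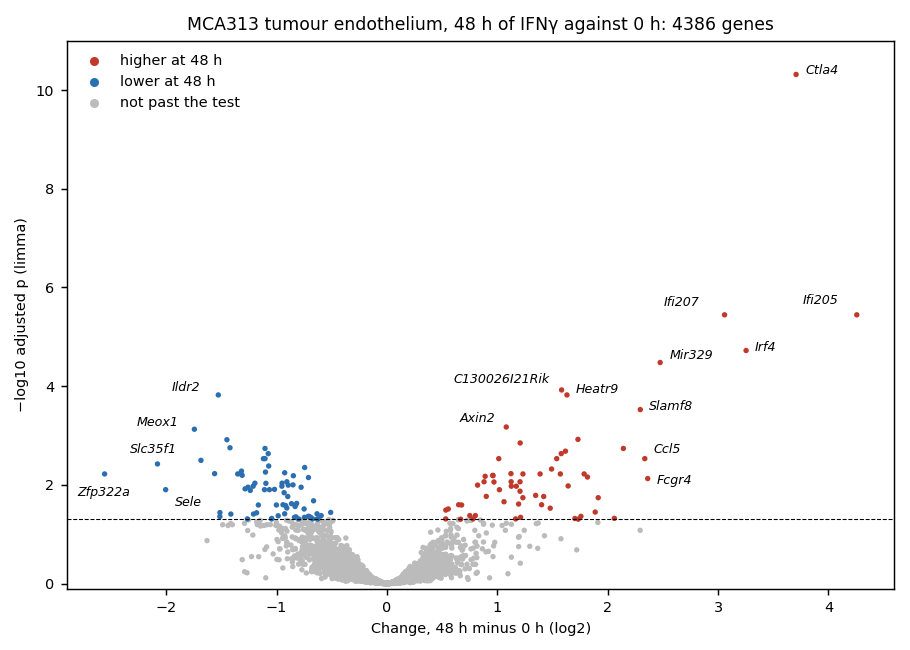
Difference between 48 h and 0 h of IFNγ in MCA313 tumour endothelium (x axis, log2) against the limma adjusted p as −log10 (y axis) for 4386 genes, with the 63 genes past the test and higher at 48 h in red, the 73 lower in blue and the threshold of 0.05 as a dashed line. Ctla4 stands above all other genes on the y axis, and Ifi205 lies farthest to the right at 4.26.

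The calls leaned on single arrays. Without replicate 1 at 48 h 14 genes passed the test, and without replicate 1 at 0 h 55 did, whereas 113 to 144 passed when any other MCA313 array of the comparison was left out. The 0 h replicate 1 array was the lowest control in 51 of the 63 genes that rose and the highest control in 50 of the 73 that fell, against 1344 and 1657 of all 4386 genes. The 48 h replicate 1 array lay above replicate 2 in 54 of the 63 and below it in 59 of the 73. The calls of 10 genes held in each of the 5 fits that left out 1 array, namely the rises of Ifi205, Ctla4, Irf4, Ifi207, Mir329, Slamf8, Heatr9, C130026I21Rik and Axin2 and the fall of Ildr2. With both replicate 1 arrays left out together 9 genes rose and 1 fell. The calls also leaned on how probe sets were summarised. Of the 56 called genes that the naming rule given below took, 20 kept the call from the brightest probe set of each gene. From the median of the probe sets 30 kept it, and 27 did in a fit of only the 7 MCA313 arrays. The 12 that kept it in all 3 were Ifi205, Ctla4, Irf4, Ifi207, Mir329, Fcgr4, Ccl5, Slamf8 and Sec61g, which rose, and Zfp322a, Meox1 and Ace, which fell. Called genes described from outside the 56, such as Axin2 and Heatr9, are not part of these counts.

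The transcription factors of the response come first. Irf1, the factor that carries the IFNγ signal to secondary targets, measured 10.18 and 9.62 at 48 h against 8.13, 8.78 and 9.28 at 0 h. Both 48 h arrays lay above all 0 h arrays, and Irf1 rose by 1.17 ± 0.26 (adjusted p = 0.0106), with 16 of 17 probe sets higher. Irf4, a factor of the same family best known from lymphocytes, measured 8.80 and 7.43 at 48 h against 4.59, 4.31 and 5.67 at 0 h. It rose by 3.25 ± 0.38 (adjusted p = 1.89e-05), or 9.54-fold, from controls that lay below the array medians, with 10 of 11 probe sets higher. Batf3, an AP-1 family factor that pairs with interferon regulatory factors in immune cells and that was picked after its values were seen, rose by 1.06 ± 0.26 (adjusted p = 0.022), a call that ended without replicate 1 at 48 h (0.68) or at 0 h (0.93).

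Of 12 tested genes of IFNγ reception and signalling, Irf1 and Irf4 were the only ones past the test. The median difference of the 12 was 0.18. Stat2 differed by 0.58 (adjusted p = 0.33), Stat3 by 0.26 (adjusted p = 0.43) and the feedback inhibitor Socs3 by 0.35 (adjusted p = 0.26). The call of Irf1 ended without replicate 1 at 48 h (0.89) and without replicate 1 at 0 h (0.87), and that of Irf4 held without any single array.

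All 7 tested immunity-related GTPases rose, against 1.44% of all genes tested. These proteins sit on vacuoles of intracellular parasites and on other membranes in mice, and Irgm1, Irgm2 and Igtp (Irgm3) are the regulators that hold the effector GTPases inactive. Irgm1 measured 9.92 and 9.69 at 48 h against 7.30, 8.48 and 9.03 at 0 h, with no overlap, and rose by 1.54 ± 0.28 (adjusted p = 0.00294). Igtp, at 11.58 and 11.36 against 8.67, 10.41 and 10.89, rose by 1.48 ± 0.37 (adjusted p = 0.0296), and Irgm2 by 1.21 ± 0.33 (adjusted p = 0.0454). In each of these 3 regulators the 0 h arrays lay farther apart than the 48 h arrays, with replicate 1 the lowest. Among the effectors Gm12250 (Irgb10), which attacks the membrane of intracellular bacteria, measured 10.90 and 10.79 at 48 h against 7.19, 9.53 and 10.16 at 0 h. It rose by 1.89 ± 0.49 (adjusted p = 0.0355), and Ifi47 (Irgd) rose by 1.21 ± 0.26 (adjusted p = 0.00864). The 2 family members known by provisional names, Gm5431 and 9930111J21Rik2, rose by 1.91 ± 0.45 (adjusted p = 0.0182) and 1.76 ± 0.47 (adjusted p = 0.0433).

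The mean level over the 7 GTPases was 10.25 and 9.94 in the 48 h arrays and 7.47, 8.79 and 9.31 in the 0 h arrays. The controls thus differed among themselves by more than the highest of them differed from the 48 h arrays. Both 48 h arrays lay above all 0 h arrays in all 7, against 14.0% of all genes, and the median difference was 1.54. Without replicate 1 at 0 h 1 of the 7 remained past the test, and the differences of Gm12250, Igtp and Irgm2 were 1.00, 0.82 and 0.69. None passed the adjusted threshold without replicate 1 at 48 h, although the differences of Irgm1 and Gm12250 were still 1.43 and 1.84, and 2, 4 and 7 passed without replicate 2 at 48 h and replicates 2 and 3 at 0 h. From the brightest probe set 1 of the 7 passed, from the median of the probe sets 2, and from the MCA313 arrays alone 0.

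RefSeq promoter windows of 300 bases (250 before to 50 after each gene's start, GRCm38.p6) were searched on both strands for GAS, spelled TTCNNNGAA, and ISRE, spelled as GAAA, any 2 bases and GAAA again. The matches of Irf1 and of 4 GTPases are shown, as those whose windows held a match; capitals mark the matched letters, overlapping matches included. The windows lie at chr11:53769912-53769944 on the plus strand for Irf1, chr11:48871423-48871462 on the minus strand for Irgm1, chr11:58214890-58214934 on the plus strand for Irgm2, chr11:58199499-58199543 on the plus strand for Igtp and chr11:58183740-58183818 on the plus strand for Gm12250.
Irf1: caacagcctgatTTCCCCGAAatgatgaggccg
Irgm1: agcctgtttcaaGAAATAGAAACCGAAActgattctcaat
Irgm2: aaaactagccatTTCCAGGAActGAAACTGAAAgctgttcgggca
Igtp: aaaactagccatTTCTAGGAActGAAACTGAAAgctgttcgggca
Gm12250: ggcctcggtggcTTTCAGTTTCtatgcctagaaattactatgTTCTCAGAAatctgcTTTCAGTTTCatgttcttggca
The Irf1 stretch holds 1 GAS match, 90 bases before the gene's start, and no ISRE match. Irgm1 holds 2 overlapping ISRE matches, 30 and 24 bases before the start. Irgm2 and Igtp each hold a GAS match followed by an ISRE match, and their 45 bases differ at 1 position. Gm12250 holds 2 ISRE matches on the opposite strand with a GAS match between them.

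Over all genes with a window, GAS matched in 8.37% of 3574 tested genes and 8.30% of 32851 windows of the whole table. It matched in 10 of 50 genes that rose (20.0%) and 3 of 64 that fell (4.69%). ISRE matched in 12 of the 50 genes that rose (24.0%) and 2 of the 64 that fell (3.12%), against 4.06% of tested genes. Either motif matched in 19 of 50 genes that rose (38.0%), 5 of 64 that fell (7.81%) and 11.7% of tested genes. Neighbouring genes of 1 family share promoter sequence, so these counts are not counts of independent promoters. The windows of Ctla4 and Irf4 held no match to either spelling.

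The Ifi200 family on chromosome 1 encodes nuclear and cytosolic proteins, several of which bind DNA through HIN domains. Ifi205 measured 10.92 and 10.03 at 48 h against 5.20, 5.93 and 7.52 at 0 h. It rose by 4.26 ± 0.44 (adjusted p = 3.58e-06), or 19.1-fold, in 3 of 3 probe sets, and this was the largest difference of any tested gene. Ifi207 measured 8.38 and 8.51 at 48 h against 4.83, 5.47 and 5.85 at 0 h, and rose by 3.06 ± 0.32 (adjusted p = 3.58e-06). The groups of both genes stood clear of each other. Ifi211 rose by 1.64 ± 0.36 (adjusted p = 0.0105), from 1 probe set, and Mndal, whose human relative MNDA is a marker of myeloid cells, by 1.13 ± 0.25 (adjusted p = 0.0106). The calls of Ifi211 and Mndal ended without replicate 1 at 48 h (1.37 and 0.87) and without replicate 1 at 0 h (1.15 and 0.84).

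Of 12 tested members 4 rose, 11 had a positive difference and the median was 1.20. Over all 4386 genes 1.44% rose and 1992 were positive. Without replicate 1 at 0 h the median was 0.77, and 2 of the 12 were called without it, without replicate 1 at 48 h or from the MCA313 arrays alone. Ifi204 differed by 1.37 (adjusted p = 0.059), Ifi213 by 1.24 (adjusted p = 0.083) and Ifi203 by 0.80 (adjusted p = 0.41). Aim2, the sensor of cytosolic DNA that assembles an inflammasome, differed by 0.17 (adjusted p = 0.87), and Ifi202b by -0.09 (adjusted p = 0.94). These genes share much sequence, and whether a probe set also reads another member was not tested. The 4 windows with an ISRE match on the gene's strand show that likeness, at chr1:174031868-174031901 for Ifi205, chr1:173741829-173741862 for Ifi207, chr1:173913062-173913095 for Ifi211 and chr1:173880202-173880235 for Mndal, all on the minus strand (GRCm38.p6), with the match in capitals.
Ifi205: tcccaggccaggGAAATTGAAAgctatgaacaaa
Ifi207: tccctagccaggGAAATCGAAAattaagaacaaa
Ifi211: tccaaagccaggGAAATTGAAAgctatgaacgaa
Mndal: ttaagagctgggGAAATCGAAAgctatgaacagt
Over these 34 bases Ifi205 differs from Ifi211 at 3 positions, from Ifi207 at 6 and from Mndal at 10. The match lies 134 bases before the start of Ifi205 and 41, 37 and 36 bases before those of Ifi207, Ifi211 and Mndal.

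**Figure D2:**
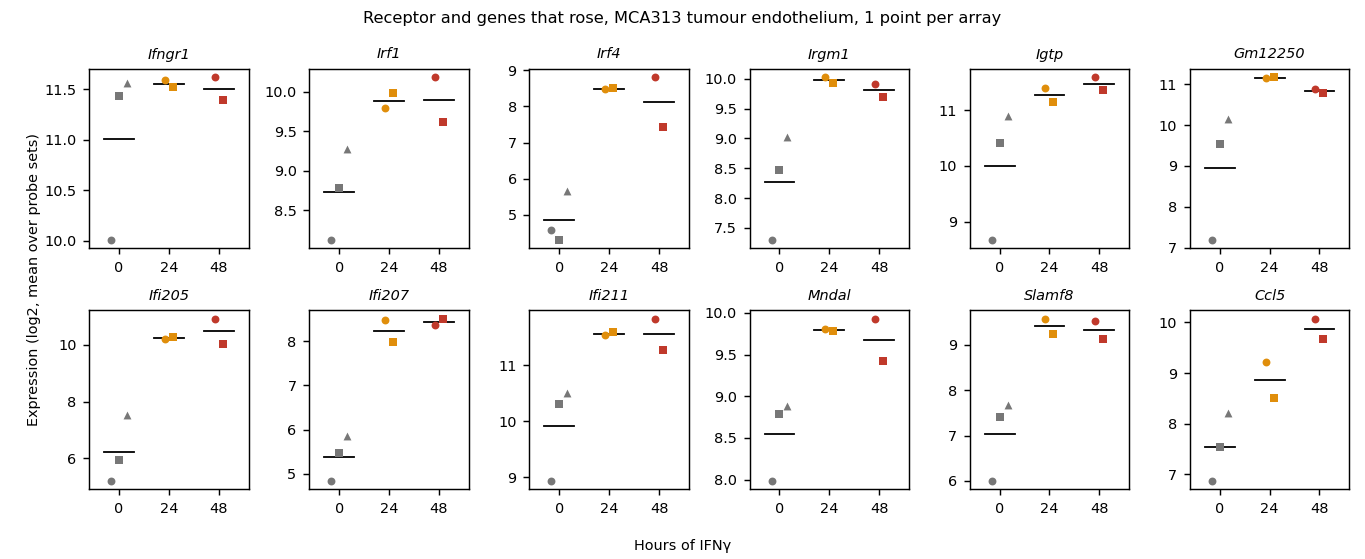
Log2 expression (y axis, mean over the probe sets of a gene) of the receptor chain Ifngr1 and 11 genes that rose, by hours of IFNγ (x axis) in MCA313 tumour endothelium; each point is 1 array (circle, square and triangle for replicates 1, 2 and 3) and each bar a group mean. The 0 h replicate 1 array is the lowest point in every panel but that of Irf4, and in Ccl5 the 24 h arrays lie between the 0 h and 48 h arrays.

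Among genes of the wider antiviral programme, Dhx58 (LGP2), a helicase that tunes RNA sensing, measured 8.19 and 8.06 at 48 h against 6.82, 6.93 and 7.13 at 0 h and rose by 1.17 ± 0.32 (adjusted p = 0.0489). It was the only one of 11 antiviral genes past the test, and its call ended in each fit that left out 1 array, where the difference was 1.10 to 1.25. The median of the 11 was 0.43 and 10 of them were positive, against 1992 of all 4386 genes. Rsad2 (viperin) and Cmpk2, which type I interferon induces strongly in many cells, differed by 0.17 (adjusted p = 0.84) and 0.14 (adjusted p = 0.82). Sp140, a nuclear body protein that reads chromatin, rose by 1.82 ± 0.38 (adjusted p = 0.00693), while its relatives Sp100 and Sp110 differed by 0.47 and 0.79 (adjusted p = 0.39 and 0.31). The call of Sp140 ended without replicate 1 at 48 h (1.36). None of the 9 Schlafen genes passed the test, and the largest differences were those of Slfn2 (0.78, adjusted p = 0.191) and Slfn4 (0.60, adjusted p = 0.56). From the brightest probe set or with array weights 1 of the 9 rose.

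Among genes of contact with immune cells, Ccl5, a chemokine that draws T cells and monocytes, measured 10.08 and 9.66 at 48 h against 6.86, 7.54 and 8.20 at 0 h. It rose by 2.34 ± 0.42 (adjusted p = 0.00294), or 5.05-fold, and the call ended without replicate 1 at 48 h (2.13). It was the only one of 13 tested chemokines past the test, and Cxcl16 followed with 0.64 (adjusted p = 0.31). Cxcl9, Cxcl10 and Cxcl11 were not among the 13. The monocyte chemokine Ccl2 measured a difference of -0.24 (adjusted p = 0.8), and the median of the 13 was 0.06. Slamf8, a receptor of the SLAM family, measured 9.52 and 9.12 at 48 h against 6.00, 7.40 and 7.67 at 0 h. It rose by 2.30 ± 0.33 (adjusted p = 0.000298), in 7 of 7 probe sets, and the other 8 tested SLAM family genes lay between -0.07 and 0.34.

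Tnfsf18, the ligand of the T cell receptor GITR, which endothelial cells can present, measured 6.15 and 5.19 at 48 h against 3.73, 3.87 and 4.30 at 0 h. It rose by 1.70 ± 0.47 (adjusted p = 0.048), and this call held without replicate 2 at 48 h but ended without any of the other 4 arrays, with differences of 1.23 to 1.87. Il18rap, the accessory chain of the IL-18 receptor, rose by 1.40 ± 0.34 (adjusted p = 0.0253) in 16 of 16 probe sets, whereas Il18r1, the chain that binds IL-18, differed by -0.11 (adjusted p = 0.92). The Il18rap call held only without replicate 3 at 0 h, with differences of 1.23 to 1.58 over the 5 fits. From the brightest probe set and from the median of the probe sets the Il18rap call ended, and from the MCA313 arrays alone it held. The IL-1 receptor Il1r1 differed by -1.21 (adjusted p = 0.1). In the leukocyte adhesion list Ninj1, an adhesion protein that also ruptures membranes of dying cells, rose by 0.65 ± 0.16 (adjusted p = 0.0253), and its call ended without replicate 1 at 48 h (0.45) or at 0 h (0.52). The calls of Tnfsf18 and Ninj1 also ended from the brightest probe set, the median of the probe sets and the MCA313 arrays alone.

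None of the 11 tested genes of antigen presentation and proteolysis passed the test, and the median was -0.09. Of the 27 genes listed only these 11 were tested, namely Mr1 and genes of the proteasome and its activators. Classical class I genes, the peptide transporter genes and the inducible catalytic subunits of the proteasome were not among them. The list therefore does not show how the presentation machinery as a whole responded. From the MCA313 arrays alone 1 of the 11 rose, and with array weights 1 fell. Psme2, the proteasome activator subunit that IFNγ induces in many cells, had the largest difference of them, with 8.93 and 8.33 at 48 h against 5.83, 6.96 and 6.22 at 0 h. Its groups did not overlap, but its 1 probe set gave 2.29 ± 0.72 (adjusted p = 0.0832). Mr1, which presents vitamin metabolites to T cells, overlapped between groups (-0.67, adjusted p = 0.236). Of 7 complement regulators none passed, with Cd46 at 0.81 and Cd55 at -0.94 (adjusted p = 0.243 and 0.482).

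Of 20 tested serpins 3 rose, and of 7 tested genes of arginine and tryptophan metabolism 1 did, Nampt, against 1.44% of all genes. Serpina3g, an inhibitor of cathepsins in mouse leukocytes, measured 11.44 and 11.02 at 48 h against 7.71, 9.53 and 10.27 at 0 h, and rose by 2.06 ± 0.56 (adjusted p = 0.0476). Its neighbour Serpina3f rose by 1.73 ± 0.48 (adjusted p = 0.0495), and Serpinb1b by 1.49 ± 0.29 (adjusted p = 0.00477). The other 17 serpins did not pass, Serpina3n among them (-0.15, adjusted p = 0.95), and the median was 0.15. The Serpina3 genes are near copies of each other, so their probe sets may share signal. Both Serpina3 calls held only without replicate 3 at 0 h; without replicate 1 at 0 h the differences were 1.33 for Serpina3g and 0.98 for Serpina3f. Nampt, the rate-limiting enzyme of NAD salvage, measured 9.41 and 8.92 at 48 h against 6.64, 7.98 and 8.17 at 0 h and rose by 1.57 ± 0.32 (adjusted p = 0.006) in 12 of 12 probe sets. Nos2, the inducible nitric oxide synthase, differed by 1.07 (adjusted p = 0.083), and Wars, the IFNγ-inducible tryptophanyl-tRNA synthetase, by 0.95 (adjusted p = 0.065). The calls of Nampt and Serpinb1b ended without replicate 1 at 48 h (1.33 and 1.62). Of the 20 serpins none passed from the brightest probe set or from the MCA313 arrays alone. From the median of the probe sets 3 rose, without Serpina3f among them. Nampt kept its call from the brightest probe set and from the median, and lost it from the MCA313 arrays alone.

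The gene with the smallest p was Ctla4, the inhibitory receptor of T cells that competes with CD28 for the ligands CD80 and CD86. It measured 7.95 and 7.09 at 48 h against 3.86, 3.62 and 3.96 at 0 h. The groups stood clear of each other, and the rise was 3.71 ± 0.21 (adjusted p = 4.83e-11), or 13.1-fold, from a level under the array medians. The median over its 11 probe sets was 4.71, and 10 of them were higher. Leaving out single arrays gave differences between 3.28 and 4.13. The genes beside it in the same locus did not pass the test: Cd28, the activating counterpart, differed by -0.15 (adjusted p = 0.81), and Icos by -0.01. Pdcd1 (PD-1) differed by -0.12 (adjusted p = 0.87) and Icosl by 0.04 (adjusted p = 0.97).

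Ctla4 was the only one of 14 tested T and NK cell markers past the test. The other 13 lay between -0.38 and 0.33, with Cd247, the zeta chain of the T cell receptor, at 0.28 (adjusted p = 0.64), and the median of the 14 was -0.01. Their mean level, Ctla4 included, was 4.90 and 4.79 at 48 h against 4.53 to 4.66 at 0 h. In bulk samples such as these, fewer cells of a type and less RNA per cell cannot be told apart. Of 21 tested myeloid markers Fcgr4, an activating Fc receptor for IgG in mice, was the only one past the test. It measured 6.73 and 5.83 at 48 h against 3.78, 4.03 and 3.94 at 0 h and rose by 2.36 ± 0.49 (adjusted p = 0.00744), a call that ended without replicate 1 at 48 h (1.91). The common leukocyte gene Ptprc (CD45) measured 5.09 and 4.37 at 48 h against 4.65, 4.96 and 4.75 at 0 h, with overlap, and Cd68 differed by 0.82 (adjusted p = 0.17). Of the 21 myeloid markers 17 had a positive difference, against 1992 of all 4386 genes, with a median of 0.16. The mean level over all 22 measured myeloid markers, tested or not, was 4.95 and 4.97 at 48 h against 4.61 to 4.72 at 0 h. Their part in the rises of Fcgr4, Slamf8, Irf4 and Ccl5, genes that myeloid cells also express, was not tested. No marker of B cells (7 tested), fibroblasts, mural cells and stroma (9), platelets and red cells (3) or lymphatic endothelium (2) passed the test. All 11 measured markers of fibroblasts, mural cells and stroma, tested or not, averaged 5.55 and 5.63 at 48 h against 5.32, 5.67 and 6.25 at 0 h.

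**Figure D3:**
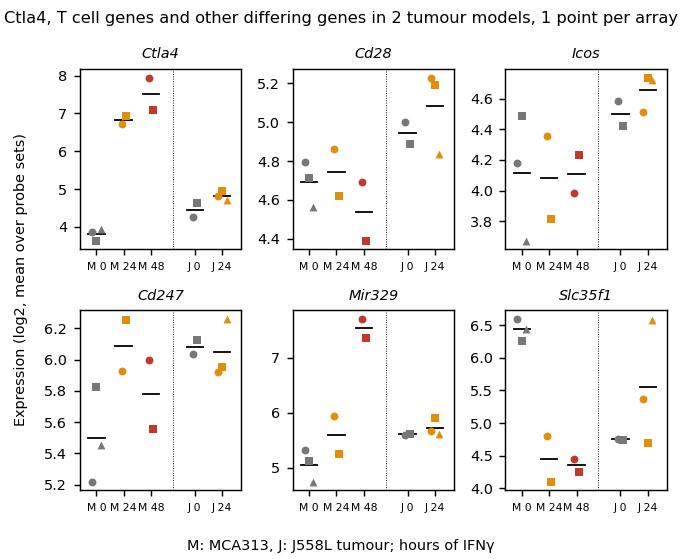
Log2 expression (y axis) of Ctla4, 3 other T cell genes, Mir329 and Slc35f1 by hours of IFNγ in MCA313 tumour endothelium (M) and, right of the dotted line, by hours of IFNγ-GFP in J558L tumour endothelium (J); each point is 1 array and each bar a group mean. Levels of the 2 models come from arrays that appear normalized apart, so only differences within a model can be compared; Ctla4 is higher after IFNγ in every MCA313 array while Cd28, Icos and Cd247 overlap between 48 h and 0 h.

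Other large rises were found outside the lists. Sec61g, a small subunit of the channel through which proteins enter the endoplasmic reticulum, measured 9.58 and 9.12 at 48 h against 6.86, 7.11 and 7.65 at 0 h. It rose by 2.14 ± 0.37 (adjusted p = 0.00183) from 2 probe sets. Gm11992, a gene with no settled name, rose by 1.79 ± 0.36 (adjusted p = 0.006) in 9 of 9 probe sets. Sec61g no longer passed without replicate 1 at 48 h (1.91), nor did Gm11992 without replicate 2 at 48 h (1.12).

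Axin2, Id2 and Nppc, picked after their values were seen, also rose. Axin2, a feedback inhibitor and target of Wnt signalling, measured 7.34 and 7.17 at 48 h against 5.96, 6.35 and 6.21 at 0 h, and rose by 1.08 ± 0.17 (adjusted p = 0.000671). Id2, which blocks basic helix-loop-helix factors, measured 8.13 and 7.75 at 48 h against 6.66, 6.58 and 6.96 at 0 h, and rose by 1.21 ± 0.20 (adjusted p = 0.00141). Nppc, the C-type natriuretic peptide that endothelium secretes, rose by 1.23 ± 0.25 (adjusted p = 0.006), but only 2 of its 4 probe sets were higher. The call of Axin2 held without any single array, and those of Id2 and Nppc ended without replicate 1 at 48 h (1.02 and 0.90).

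Of genes that endothelium uses to capture leukocytes, Sele, the cytokine-induced E-selectin, fell. It measured 7.23 and 8.21 at 48 h against 9.80, 10.05 and 9.32 at 0 h, with no overlap. The difference was -2.00 ± 0.45 (adjusted p = 0.0125), or 4.01-fold lower, and all 13 probe sets were lower. Selp, the P-selectin stored in the same cells, overlapped between groups at 9.69 and 9.41 against 9.48, 10.35 and 10.19 (-0.46, adjusted p = 0.663), and the venular chemokine receptor Ackr1 differed by -0.85 (adjusted p = 0.45). The Sele call ended without replicate 1 at 48 h (-1.51) and without replicate 1 at 0 h (-1.96).

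None of the 11 tested endothelial identity genes passed the test, with a median of -0.37 and 8 of 11 negative, against 2394 of all 4386 genes. From the brightest probe set, the median of the probe sets or the MCA313 arrays alone 1 of the 11 fell. With the stricter filter 1 rose. Pecam1 differed by -0.23 ± 0.14 (adjusted p = 0.48). Its 48 h arrays both lay below the 0 h arrays, and 19 of 21 probe sets were lower. Cd300lg, a mucin-like receptor of capillary and venular endothelium, measured 7.68 and 8.29 at 48 h against 8.94, 9.19 and 9.16 at 0 h (-1.11, adjusted p = 0.0665). Car4, a carbonic anhydrase of capillaries, lay the other way, at 9.15 and 9.30 against 7.63, 7.10 and 8.89 (1.35, adjusted p = 0.061). The receptor tyrosine kinase gene Flt4 differed by -0.46 (adjusted p = 0.367).

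Of 13 tested genes of tip cells and vessel guidance 3 fell and none rose, against 1.66% lower and 1.44% higher of all genes. The median of the 13 was -0.46. Unc5b, a netrin receptor that restrains sprouting, measured 8.25 and 9.11 at 48 h against 10.31, 9.60 and 9.86 at 0 h, and fell by 1.24 on the log2 scale (SE 0.28, adjusted p = 0.0129). Hecw2, a ubiquitin ligase, fell by 1.35 (SE 0.27, adjusted p = 0.006) and Slit3, a ligand of Robo receptors, by 0.63 (SE 0.17, adjusted p = 0.0385). Sema4c and Etv4 differed by -0.69 and -0.70 (adjusted p = 0.083 and 0.051). All 3 calls ended without replicate 1 at 48 h, where the differences were -0.81 for Unc5b, -0.88 for Hecw2 and -0.45 for Slit3. The call of Unc5b also ended without replicate 1 at 0 h (-1.04), and that of Slit3 without replicate 2 (-0.52) or replicate 3 (-0.59) at 0 h. Of the 13 genes none fell from the brightest probe set, 2 from the median of the probe sets and 1 from the MCA313 arrays alone.

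Among the 15 largest falls were 2 further genes of vessels. Ace, the angiotensin-converting enzyme of the endothelial surface, measured 7.25 and 7.88 at 48 h against 9.32, 9.05 and 9.37 at 0 h, and all 25 probe sets were lower. It fell by 1.68 (SE 0.31, adjusted p = 0.00318). Meox1, a homeobox factor, measured 6.61 and 7.41 at 48 h against 9.26, 8.81 and 8.19 at 0 h and fell by 1.74 (SE 0.27, adjusted p = 0.000745). The groups did not overlap in either gene. Vash1, an inhibitor of angiogenesis that endothelium makes itself, and Jag2, a Notch ligand, both picked after their values were seen, fell by 1.07 (SE 0.20, adjusted p = 0.00414) and 0.90 (SE 0.21, adjusted p = 0.0172). The calls of Ace, Meox1, Vash1 and Jag2 ended without replicate 1 at 48 h (-1.37, -1.34, -0.92 and -0.62), and that of Jag2 also without replicate 1 at 0 h (-0.72).

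Of 26 tested genes of basement membrane and interstitial matrix 4 fell and 1 rose, with a median of -0.10. Over all genes tested 1.66% fell and 1.44% rose. Col18a1, the basement membrane collagen from which endostatin is cut, measured 8.01 and 8.09 at 48 h against 9.33, 9.08 and 9.09 at 0 h. It fell by 1.12 (SE 0.20, adjusted p = 0.00294), with 25 of 26 probe sets lower. The laminin chains Lamb1 and Lamc1, which join in the main laminins of vessels, fell together, by 0.60 (SE 0.16, adjusted p = 0.0419) and 0.66 (SE 0.16, adjusted p = 0.021), with 32 of 33 and 24 of 25 probe sets lower. Their alpha chain Lama4 differed by -0.49 (adjusted p = 0.2), and the linker Nid1 by -0.10. Fbln5, an organiser of elastic fibres, measured 7.42 and 8.64 at 48 h against 9.49, 9.05 and 9.39 at 0 h and fell by 1.28 (SE 0.29, adjusted p = 0.012).

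Timp3, an inhibitor of metalloproteinases that is held in the matrix and blocks the VEGF receptor, went the other way. It measured 11.62 and 11.35 at 48 h against 9.12, 10.40 and 10.77 at 0 h and rose by 1.39 ± 0.28 (adjusted p = 0.006). The fibrillar collagens Col1a1 and Col3a1 differed by -0.12 and 0.21 (adjusted p = 0.94 and 0.78). None of the 5 matrix calls held without replicate 1 at 48 h, and Fbln5 differed by -0.68. Without replicate 1 at 0 h the calls of Col18a1 (-1.04) and Timp3 (0.90) held, and those of Lamb1, Lamc1 and Fbln5 ended. From the brightest probe set none of the 26 passed, from the median of the probe sets 3 fell and from the MCA313 arrays alone 1.

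Of 20 tested mitosis genes 4 fell and none rose, 18 were negative and the median was -0.88, against -0.03 over all genes. Over all 4386 genes 1.66% fell and 2394 were negative. From the brightest probe set 1 fell, with a median of -0.46, from the median of the probe sets 1 fell, and from the MCA313 arrays alone 2. In 16 of the 20 both 48 h arrays lay below all 0 h arrays, against 19.8% of all genes. Top2a, the topoisomerase of dividing cells, measured 5.34 and 6.44 at 48 h against 7.56, 7.09 and 7.57 at 0 h and fell by 1.51 (SE 0.41, adjusted p = 0.0438), with 31 of 32 probe sets lower. Kif14, a motor of cytokinesis, measured 3.92 and 3.95 at 48 h against 5.01, 4.63 and 4.88 at 0 h and fell by 0.91 (SE 0.19, adjusted p = 0.00864). Hmmr, which binds the spindle and hyaluronan, fell by 1.11 (SE 0.25, adjusted p = 0.0125) and Ube2t, a ubiquitin-conjugating enzyme of crosslink repair, by 0.93 (SE 0.24, adjusted p = 0.0385). Birc5 (survivin) and Aurkb (aurora kinase B) had differences as large, at -1.44 and -1.29, but did not pass (adjusted p = 0.066 and 0.06).

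Of 20 genes of DNA replication and S phase 3 fell, none rose, 19 were negative and the median was -0.56. Over all 4386 genes 1.66% fell and 2394 were negative. Rrm2, the subunit of ribonucleotide reductase that makes DNA precursors in S phase, measured 5.42 and 5.02 at 48 h against 6.48, 6.08 and 6.39 at 0 h and fell by 1.10 (SE 0.24, adjusted p = 0.00928). Mcm3, part of the replicative helicase, measured 6.97 and 7.61 at 48 h against 8.57, 8.19 and 8.26 at 0 h and fell by 1.05 (SE 0.29, adjusted p = 0.0489). Xrcc5 (Ku80), which joins broken DNA ends rather than copying DNA, fell by 1.56 (SE 0.31, adjusted p = 0.00591). From the brightest probe set none of the 20 fell, from the median of the probe sets 1 and from the MCA313 arrays alone 2. Of 9 histone genes H2bc3 fell by 1.18 (SE 0.31, adjusted p = 0.0368) and H2ac10 by 0.94 (SE 0.23, adjusted p = 0.0253), while the median of the 9 was 0.0045. None of the 9 calls in these 3 lists held without replicate 1 at 48 h, and Top2a differed by -0.96. Without replicate 1 at 0 h only that of Xrcc5 held, although Top2a still differed by -1.44 and Kif14 by -0.82. The mitosis list had 6 falls without replicate 2 at 48 h, 7 without replicate 2 at 0 h and 2 without replicate 3 at 0 h.

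**Figure D4:**
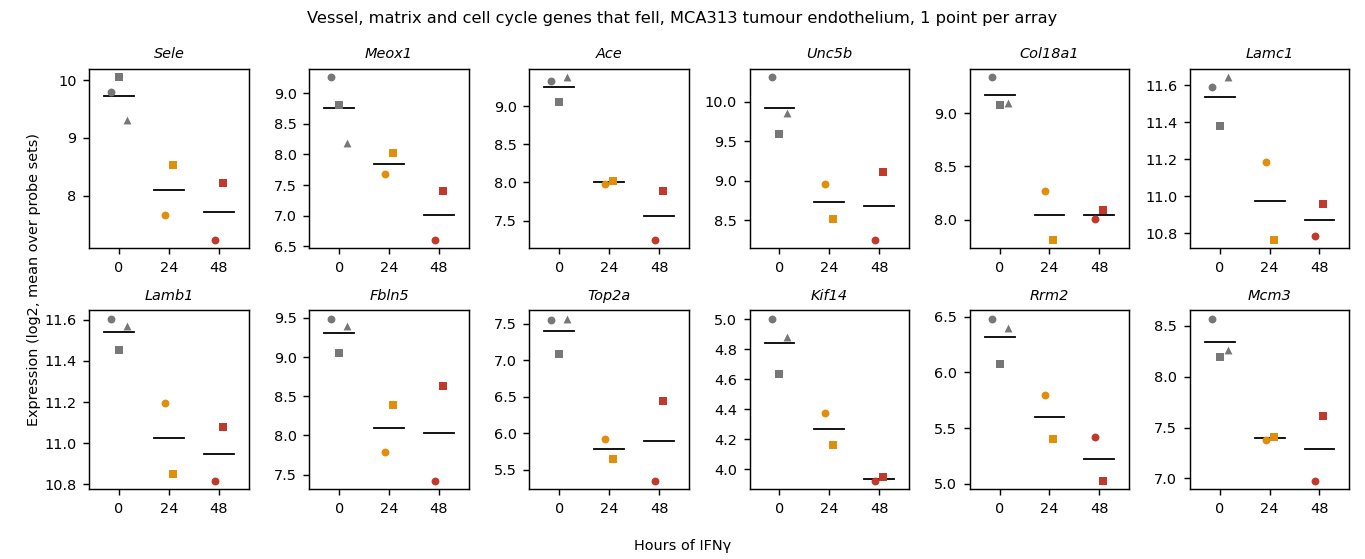
Log2 expression (y axis, mean over the probe sets of a gene) of 12 vessel, matrix and cell cycle genes that fell, by hours of IFNγ (x axis) in MCA313 tumour endothelium; each point is 1 array (circle, square and triangle for replicates 1, 2 and 3) and each bar a group mean. No 48 h array reaches the 0 h arrays in these panels, and the 48 h replicates of Sele, Fbln5, Unc5b and Top2a lie apart, with replicate 1 the lower.

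Ddit4, an inhibitor of mTORC1 that hypoxia and stress induce, measured 7.40 and 7.86 at 48 h against 8.93, 9.10 and 8.79 at 0 h and fell by 1.31 (SE 0.27, adjusted p = 0.0064), a call that ended without replicate 1 at 48 h (-1.08). It was the only one of 12 genes of glycolysis and hypoxia past the test, and Hif1a differed by 0.24 (adjusted p = 0.5). None of 15 immediate-early and dissociation stress genes passed, Fos among them at -0.22 (adjusted p = 0.72). The 2 with the largest differences were Cited2 at 0.69 and Gadd45b at 0.63 (adjusted p = 0.198 and 0.145). With a variance prior with trend 1 of the 15 rose. Of 17 apoptosis genes the dependence receptor Unc5b was the only one past the test. Casp8 differed by 0.07 and Bcl2 by -0.28 (adjusted p = 0.91 and 0.57).

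The remaining large falls have no shared role in the lists. Slc35f1, a member of a solute carrier family, measured 4.45 and 4.25 at 48 h against 6.60, 6.26 and 6.44 at 0 h and fell by 2.08 (SE 0.39, adjusted p = 0.00376) in all 11 probe sets. Ildr2, a receptor with an immunoglobulin-like domain, measured 4.46 and 4.66 at 48 h against 6.69, 5.76 and 5.80 at 0 h and fell by 1.53 (SE 0.21, adjusted p = 0.00015). It was the only fall that held without any single array. Zfp322a, a zinc finger gene read by 1 probe set, had the largest fall, by 2.56 (SE 0.51, adjusted p = 0.006), at 3.26 and 3.06 at 48 h against 6.18, 5.33 and 5.64 at 0 h. The other genes among the 15 largest falls were Glb1l, Ercc5 (an endonuclease of nucleotide excision repair), Nptx1, 4930430F08Rik, Ttyh2 and Colgalt2 (a collagen galactosyltransferase), which fell by 1.32 to 1.51. The calls of Slc35f1, Zfp322a, Ercc5, Nptx1 and Ttyh2 ended without replicate 1 at 48 h (-2.18, -2.66, -1.26, -0.92 and -0.97), that of Colgalt2 without replicate 2 at 48 h (-1.13), that of 4930430F08Rik without replicate 1 at either time (-1.10 and -1.15) or replicate 3 at 0 h (-1.45), and that of Glb1l without any single array.

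**Figure D5:**
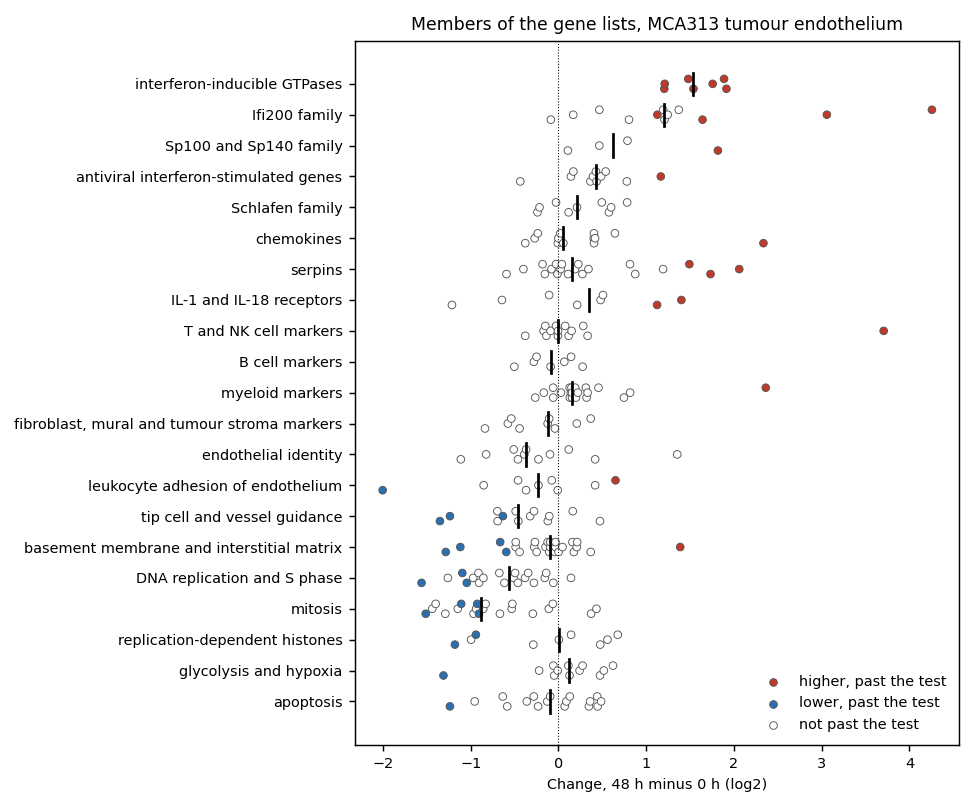
Difference between 48 h and 0 h of IFNγ in MCA313 tumour endothelium (x axis, log2) for the tested members of 21 gene lists (rows); filled points passed the test (red higher, blue lower), open points did not, and each vertical bar is the median of a list. All 7 GTPases are red, single red points stand far from their lists for chemokines, T cell and myeloid markers, and the mitosis list has its median at -0.88.

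Some of the genes that rose were neighbours on the chromosome. By gene order in the RefSeq annotation 18 of the 63 genes that rose stood directly beside another, in 10 pairs, and 4 of the 73 that fell did, in 2 pairs. On chromosome 11 these were Irgm1 with Gm5431, 9930111J21Rik2 with Ifi47, Gm12250 with Igtp with Irgm2, Heatr9 with Ccl5, and Gm11992 with Upp1. On chromosome 12 they were Nampt with Gdap10 and Serpina3f with Serpina3g, and on chromosome 1 Ifi203-ps with Mndal with Ifi211. How many pairs chance gives among the tested genes was not computed, so these counts have no background. Several pairs are members of 1 family, whose probe sets may share signal. Heatr9 lay at 6.05 and 5.38 at 48 h against 4.12, 4.16 and 3.98 at 0 h and rose by 1.63 ± 0.22 (adjusted p = 0.00015) in 15 of 15 probe sets. Gdap10 rose by 1.73 ± 0.28 (adjusted p = 0.0012), a call that ended without replicate 1 at 48 h (1.53). Reads of overlapping transcripts were not told apart on these arrays here.

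The 24 h and 48 h differences share the 0 h arrays, so they are given side by side and only the direct comparison of 48 h with 24 h was tested. That comparison called 1 gene, 0.0228% of those tested (limma, adjusted p under 0.05), and 198 genes had an unadjusted p under 0.05, where chance gives 219.3. The GTPases had a median difference of 1.71 at 24 h and 1.54 at 48 h. Mean GTPase levels were 7.47, 8.79 and 9.31 at 0 h, 10.22 and 10.22 at 24 h, and 10.25 and 9.94 at 48 h. Mitosis genes had a median difference of -0.82 at 24 h and -0.88 at 48 h, and DNA replication genes of -0.68 and -0.56. Il10, the anti-inflammatory cytokine, measured 4.44, 4.59 and 4.89 at 0 h, 4.70 and 4.46 at 24 h, and 5.38 and 6.15 at 48 h. It rose by 1.12 ± 0.22 at 48 h (adjusted p = 0.00591) and differed by -0.06 at 24 h. That call ended without replicate 2 at 48 h (0.74), and the brightest probe set of Il10 differed the other way, by -0.25. Ccl5 differed by 1.32 at 24 h (adjusted p = 0.095) and rose by 2.34 at 48 h. Neither Il10 nor Ccl5 passed the test of 48 h against 24 h.

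The gene called between 48 h and 24 h was Mir329, a microRNA gene of the imprinted Dlk1-Dio3 region on chromosome 12. It measured 5.32, 5.12 and 4.74 at 0 h, 5.95 and 5.26 at 24 h, and 7.71 and 7.36 at 48 h. The difference between 48 h and 24 h was 1.93 ± 0.33 (adjusted p = 0.0303), and that between 48 h and 0 h was 2.48 ± 0.30 (adjusted p = 3.31e-05). The call of 48 h against 24 h held in 1 of 4 fits that left out 1 array, the one without replicate 1 at 24 h (2.28). It ended without replicate 2 at 24 h (1.59) and without replicate 1 (1.76) or replicate 2 (2.11) at 48 h. The value rests on 1 probe set annotated to the gene, which reads RNA of the locus and not the mature microRNA, and the 0 h and 24 h means lay below the array medians. The 2 mature sequences of the gene are shown to identify it, with the seed (bases 2 to 8) in capitals, from RefSeq at chr12:109713541-109713562 and chr12:109713503-109713524 on the plus strand (GRCm38.p6).
miR-329-3p: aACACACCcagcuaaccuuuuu
miR-329-5p: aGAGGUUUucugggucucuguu

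The response at 48 h was set against that of a second tumour model, J558L-IFNγ-GFP-IND, in which an IFNγ-GFP fusion was induced for 24 h (3 arrays) or not (2 arrays). Those tumours grew in female mice of the same age that lack mature T and B cells (Rag-/-) and carry the receptor on all cells. Model, receptor, host and time differ together and cannot be told apart. The difference of the 2 responses was called for 3 genes, 0.0684% of those tested, and 197 genes had an unadjusted p under 0.05, where chance gives 219.3. For Ctla4 the responses differed by 3.33 ± 0.29 (adjusted p = 4.15e-07). In J558L tumours it measured 4.81, 4.94 and 4.71 at 24 h against 4.26 and 4.62 at 0 h, a difference of 0.37. The call held in 10 of 10 fits that left out 1 array, and with 24 h in both models the responses differed by 2.64 (adjusted p = 3.02e-05), a comparison added after the data were seen.

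The responses of Mir329 differed by 2.35 ± 0.43 (adjusted p = 0.0335), and at 24 h in both models by 0.42. Those of Slc35f1 differed by -2.87 ± 0.55 (adjusted p = 0.0455), with J558L arrays of 5.36, 4.70 and 6.57 at 24 h against 4.76 and 4.74 at 0 h. The call of Slc35f1 held in 1 of 10 fits that left out 1 array and that of Mir329 in 2 of 10. For the other genes named here no difference between the models was called, which does not show that the models responded alike: the median standard error of the difference was 0.298.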

How the data were processed

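Log2 expression values per probe set were used as the authors deposited them, for 26 arrays. Affymetrix Expression Console and limma are named, per the submitters' processing notes; how the arrays were normalized was not given in the sources used here. Exact values recurred between arrays within 4 sets (1.24% to 7.59%) and almost never between sets (at most 0.01%), so the sets appear to have been normalized separately and levels were not compared between them.

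A gene's value is the mean over its probe sets annotated to 1 symbol (53857 of 65535; 766 had several symbols and 10912 none). Of 5109 genes 4386 were kept, whose brightest probe set exceeded the array's median in at least 2 arrays. In limma 3.58.1 (R 4.3.3) the 26 arrays were modelled by their 9 group means, with Benjamini-Hochberg adjustment at 0.05 over all genes. The fit was also run on simulated data, whose noise had each gene's spread pooled over all groups. Those data could not show whether that spread holds for the MCA313 arrays. Arrays were grouped by their titles. Promoter and microRNA sequences are RefSeq's, GRCm38.p6.

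The rule for naming genes took, of those past the test and without overlap between groups, the 15 that rose and the 15 that fell most, from each list at most 4 called members (where none was called, at most 2), a few check genes, and up to 5 each way of the other comparisons; others were picked after their values were seen or stand for a list. The members and gene lists were chosen with earlier results of these data known. Alternatives were other summaries of probe sets, filters, quantile normalization, variance priors, weights per array, a block for the replicate number, the MCA313 arrays alone, and leaving out each array.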

Additional observations from a re-analysis of the deposited data

Results flagged for a closer look

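The response of MCA313 endothelium at 48 h differed from that of J558L tumour endothelium at 24 h in 3 genes by the test of that difference. The values were 3.33 for Ctla4, 2.35 for Mir329 and -2.87 for Slc35f1 (log2, MCA313 response minus J558L response). The response of Mir329 also differed between 48 h and 24 h within the MCA313 arrays, by 1.93, a call that held in 1 of 4 fits that left out 1 array. No group of the MCA313 comparison held the 4 arrays that the check for single outlying arrays needs.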

How the results depend on the processing

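Against the 136 genes called at 48 h against 0 h, 60 were called from each gene's brightest probe set (40 higher and 20 lower), 68 from the median of its probe sets (35 higher and 33 lower) and 66 from the MCA313 arrays alone, and 10 with replicate 1 left out at both times, an alternative chosen after seeing the data. Leaving out single arrays gave 14 to 144 calls. No filter, a stricter filter, a filter on the gene mean, quantile normalization, a variance prior with trend and array weights gave 123 to 196. Over the lists 46 calls were made; under other settings, where they need not be of the same genes, there were 20 from the brightest probe set, 25 from the median, 20 from the MCA313 arrays alone, 6 with both replicate 1 arrays left out and 6 to 42 without single arrays. The 1 call of 48 h against 24 h became 3 with the brightest probe set and 0 with the median, the stricter filter, array weights or the MCA313 arrays alone, and 0 to 1 without single arrays, where Mir329 held in 1 of 4 fits and the 1 call without replicate 1 at 48 h was another gene. The 3 calls of the difference from J558L became 1 with the brightest or the median probe set or with 24 h in both models, and 1 to 3 without single arrays. Among the genes past the test that the naming rule took, the only sign that turned was that of Il10, at -0.25 (adjusted p = 0.880) in its brightest probe set. Signs of genes not past the test were not counted. The cause of these shifts was not tested. With the replicate number as a block 118 genes were called (consensus correlation -0.0282); same-numbered arrays deviated together by no more than 0.0437, so the numbers were not taken to pair the samples. Of the 56 genes past the test that the naming rule took, 10 remained past it without replicate 1 at 48 h and 41 without replicate 2 at 48 h. Without replicates 1, 2 and 3 at 0 h 30, 46 and 45 remained, and none of the 56 changed sign.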

Other observations

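Some genes outside the lists, picked after their values were seen, moved at 48 h with roles not described above. Lgmn (legumain) and Npc2, which act in lysosomes on proteins and on cholesterol, rose by 0.89 ± 0.18 (limma adjusted p = 0.0067) and 0.96 ± 0.20 (adjusted p = 0.00652). Lgmn measured 11.35 and 11.24 at 48 h against 10.28, 10.45 and 10.49 at 0 h, and Npc2 9.59 and 9.24 at 48 h against 8.08, 8.48 and 8.82 at 0 h. Gna13, a G protein alpha subunit, measured 10.69 and 10.44 at 48 h against 9.25, 9.86 and 9.71 at 0 h and rose by 0.96 ± 0.20 (adjusted p = 0.0064). Fasn, the fatty acid synthase, measured 7.71 and 8.09 at 48 h against 9.16, 8.94 and 9.09 at 0 h and fell by 1.16 (SE 0.29, adjusted p = 0.0255), with 38 of 40 probe sets lower. Dnmt3a, a DNA methyltransferase, measured 5.87 and 5.84 at 48 h against 6.76, 6.63 and 6.42 at 0 h and fell by 0.75 (SE 0.19, adjusted p = 0.0307), with 20 of 25 probe sets lower. The groups did not overlap in any of these 5 genes. None of the 5 passed the test without replicate 1 at 48 h (differences of 0.84 for Lgmn, 0.78 for Npc2, 0.83 for Gna13, -0.97 for Fasn and -0.77 for Dnmt3a). Lgmn alone of the 5 passed without each of the other 4 arrays.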
